A study of Mus musculus with 5 samples.

Results

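The Iroquois homeobox (Irx) genes of the mouse lie in 2 clusters of 3 genes, Irx1, Irx2 and Irx4 on chromosome 13 and Irx3, Irx5 and Irx6 on chromosome 8. These 6 genes were taken by name, and no threshold on a measured value entered the rule, from the 55536 genes of the GENCODE annotation of GRCm38, and the stretches between the genes of each cluster were examined with them. H3K27me3 ChIP-seq was available as 4 lists of peaks from dermal fibroblasts of wild-type mouse skin, namely 2 libraries labelled E14 and 2 labelled E17. The methods of the study give these stages as E14.5 and E18.5, and the mice as of C57BL/6 background. Cells of whole dermis were grown in culture at both stages before chromatin was prepared, without sorting for a fibroblast lineage or any treatment given in the labels. The labels name DMEM with serum and sonication, where the methods name AmnioMAX medium and enzymatic digestion. The input library of the series was not analysed here. The labels do not say whether the replicates came from separate embryos or litters, so that the spread between them may be technical or biological.
Irx proteins are transcription factors with a homeodomain of the TALE class and a short conserved motif, the Iro box. They set up position and cell identity in the embryo, in the nervous system, heart, limb and other organs. Each gene of one cluster has a counterpart at the same place in the other cluster, because the clusters arose by duplication, and the pairs are Irx1 with Irx3, Irx2 with Irx5 and Irx4 with Irx6. H3K27me3 is laid down by Polycomb repressive complex 2 and removed by Kdm6a and Kdm6b, and it typically covers silent developmental genes in wide domains. An H3K27me3 peak is a stretch where immunoprecipitated fragments pile up above the local background, and the peak lists give no read counts, so that the depth behind each peak cannot be read from them.

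Peaks numbered 21546 and 16574 in the E14 lists and 10429 and 7107 in the E17 lists, and they covered 52.8 and 32.1 Mb at E14 and 20 and 14.3 Mb at E17. Thus the E17 lists covered 40.4% of the E14 length on average, and every covered length at the Irx genes stands beside that decrease. Of the 8 dermal fibroblast markers examined, Col1a1, Col1a2, Col3a1, Pdgfra, Dpt, Lum, Twist2 and Vim, 0 had a peak reaching to within 3000 bp of their start sites in any list. Such absence was common, since 46453 of all 55536 annotated genes had no peak there. Of 22028 protein-coding genes, 5675 had one. Among markers of other cells, a peak was found in all 4 libraries at Cdh1 (1 of 5 keratinocyte markers), at Sox10 (1 of 3 melanocyte and neural crest markers) and at Myod1 and Pax7 (2 of 3 muscle markers), in both E14 libraries alone at Myf5 and Cd3e, and at 0 of 3 endothelial markers. A peak does not measure expression.

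At the genes, the 2 Irx clusters were alike in where the mark lay. The outer genes Irx1 and Irx3 had a domain upstream of the gene, the middle genes Irx2 and Irx5 had no peak near a start site except in E14 replicate 2, and the genes at the far end, Irx4 and Irx6, had a domain over the gene itself. A gene is called marked in a library where a peak overlaps the 3000 bp on either side of one of its start sites. Irx1, Irx3, Irx4 and Irx6, 4 of the 6 genes, were marked in all 4 libraries, as were 6.97% of all annotated genes and 12% of protein-coding genes. The same 4 genes were those marked in both E14 libraries, as were 11.6% of all annotated genes. The map of both clusters shows this arrangement along the chromosomes.

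**Figure D1:**
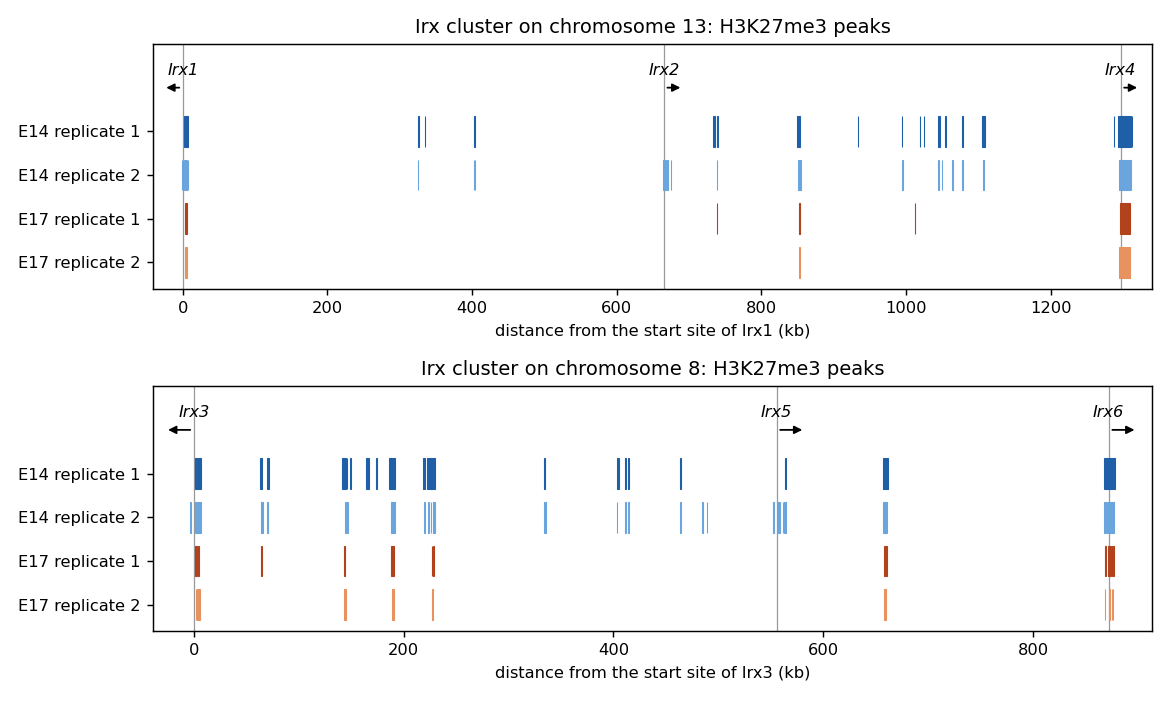
Peaks of each library (rows, blue for E14 and orange for E17) along the Irx cluster of chromosome 13 (top) and chromosome 8 (bottom), by distance in kb from the start site of the first gene, with start sites as grey lines and arrows in the direction of transcription. Peaks in all 4 libraries are seen at Irx1, Irx4, Irx3 and Irx6 and at single places between the genes, and at Irx2 and Irx5 peaks are seen in the E14 rows only.

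Irx4, best known for its role in the ventricles of the heart, had the widest peak of the chromosome 13 cluster in every library. The gene (ENSMUSG00000021604) lies on chromosome 13 from 73260479 to 73269608 on the plus strand (GRCm38). A single peak covered the whole gene in each library, with a width of 17511 and 16977 bp at E14 and 14597 and 15731 bp at E17. The E17 peaks were narrower than both E14 peaks, and they still ran from before the start site to beyond the end of the gene. By width, this peak ranked 241 and 133 in the E14 lists and 123 and 81 in the E17 lists, which are shorter. As a percentile of width within its own list, it stood at 98.9 and 99.2 at E14 and at 98.8 and 98.9 at E17.
By fold enrichment, the ratio of pileup to local background that the authors' peak caller gave, the Irx4 peak reached 7.6 and 6.73 at E14 and 4.9 and 4.61 at E17. Fold enrichment cannot be compared between libraries whose depth the lists do not give, so each peak was placed within its own list. The Irx4 peak stood at the 99.1 and 97.4 percentile at E14 and at the 95.3 and 88.1 percentile at E17, and it was the strongest peak of the cluster in each library. Within 3000 bp of its start sites, 6018 and 5573 bp were covered at E14 and 4343 and 5548 bp at E17. The means were 5796 ± 315 bp and 4946 ± 852 bp (SD, n = 2), a decrease of 14.7% that was no larger than the spread between the E17 replicates although the stages did not overlap (p = 0.333 by an exact permutation test, two-sided here and throughout, which is the lowest value this design can give and cannot pass a threshold of conventional size).
The sequence before the Irx4 start site is shown because it lies inside the peak of every library, next to the corresponding sequence of Irx2, which lies outside or at the edge of peaks. Both are the 250 bases before the start given by RefSeq for GRCm38 on the plus strand of chromosome 13, at chr13:73260247-73260496 for Irx4 and chr13:72628570-72628819 for Irx2, and CpG dinucleotides are in capitals.
Irx4: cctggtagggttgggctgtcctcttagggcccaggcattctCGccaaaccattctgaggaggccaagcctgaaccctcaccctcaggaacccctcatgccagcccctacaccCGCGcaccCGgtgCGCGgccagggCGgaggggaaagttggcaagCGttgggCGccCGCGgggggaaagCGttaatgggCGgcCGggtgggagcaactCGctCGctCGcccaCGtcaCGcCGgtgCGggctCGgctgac
Irx2: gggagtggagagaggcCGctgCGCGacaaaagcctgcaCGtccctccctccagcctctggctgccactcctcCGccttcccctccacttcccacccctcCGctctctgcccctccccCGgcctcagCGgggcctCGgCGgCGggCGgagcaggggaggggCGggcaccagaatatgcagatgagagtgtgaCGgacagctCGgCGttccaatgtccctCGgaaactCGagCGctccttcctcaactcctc
The Irx4 sequence held 22 CpG and the Irx2 sequence 19, with a GC content of 68.8% and 68.4%. Of the 32851 RefSeq promoter entries, 14.8% had at least as many CpG as Irx4 and 19.7% at least as many as Irx2, so that both starts are rich in CpG while their peaks differed. Of the Irx genes, Irx2, Irx3 and Irx4 were found in that table.

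Irx6, the counterpart of Irx4 on chromosome 8, is known from bipolar cells of the retina. The gene (ENSMUSG00000031738) lies from 92674288 to 92680956 on the plus strand. In E14 replicate 1 a single peak of 11114 bp ran over the gene, and in E14 replicate 2 peaks of 2183 and 6921 bp lay before and over it. At E17 the domain was broken into shorter peaks, with 2953 and 2117 bp over the gene in replicate 1 and 1600, 218 and 385 bp in replicate 2. The start base of the gene lay in a peak in both E14 libraries and in E17 replicate 1, and in E17 replicate 2 the nearest peak began 6 bp after it.
Within 3000 bp of the Irx6 start sites, 6539 and 5305 bp were covered at E14 and 3885 and 1818 bp at E17. The stages did not overlap, with means of 5922 ± 873 bp and 2852 ± 1462 bp (SD, n = 2), a decrease of 51.8% (p = 0.333, exact permutation test). This depended on how the domain was split into peaks. When peaks within 3000 bp of each other were joined, the difference was -1503 bp instead of -3070 bp, and the stages were no longer fully apart. By fold enrichment, the strongest peak in the window, without joining, reached the 83.5 and 82.1 percentile in the E14 lists and the 87 and 90.4 percentile in the E17 lists. The lists differ in length, and the median over all marked genes of the same percentile was 80.8 and 80.5 at E14 and 78.1 and 73.4 at E17. The Irx6 value was above that median in every library.

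Irx1 and Irx3 lie at the first position of their clusters, and both are read away from the rest of the cluster, so that the stretch upstream of the gene lies inside the cluster. Irx1 is known for its expression in the developing lung, kidney and limb, and Irx3 for its long-range contacts with enhancers in the introns of Fto and for its part in body weight. Irx1 (ENSMUSG00000060969) lies on chromosome 13 from 71957921 to 71963723 and Irx3 (ENSMUSG00000031734) on chromosome 8 from 91798525 to 91802067, both on the minus strand. At both genes the start base lay in no peak in any library. Among all genes marked in every library, the start base lay in no peak for 22.8%, and in a peak in all 4 libraries, as at Irx4, for 45.9%.
The domain upstream of Irx1, from 71964858 to 71971298, began 1135 bp before the start base and was covered over 6441 and 5410 bp at E14 and 3332 and 2960 bp at E17, where its near edge lay at positions -2456 and -2807 from the start base. The domain upstream of Irx3, from 91803091 to 91809139, began 1024 bp before the start base and was covered over 6049 and 5526 bp at E14 and 2446 and 3242 bp at E17. In both domains the E17 libraries lay below both E14 libraries, and the E17 mean was 53.1% of the E14 mean upstream of Irx1 and 49.1% upstream of Irx3. The domain of Irx3 lies over the antisense transcript Irx3os.
The windows of 3000 bp around the start sites caught only the near edge of these domains. At Irx1 they held 1866 and 2683 bp of peaks at E14 and 545 and 194 bp at E17, a decrease of 83.8% (p = 0.333, exact permutation test). At Irx3 they held 1977 and 2200 bp at E14 and 1616 and 556 bp at E17, a decrease of 48% (p = 0.333, exact permutation test). With windows of 1000 bp no peak was left at Irx3 in any library, and the number of Irx genes with a peak in all 4 libraries was 2 instead of 4. E14 replicate 2 alone had further peaks inside both genes, of 1135 bp in Irx1 and 477 bp in Irx3.
At E14 the strongest peak in the window stood at the 93.7 and 90.6 percentile at Irx1 and at the 92.6 and 94.7 percentile at Irx3. At E17 these values were 51.8 and 61.5 at Irx1 and 19.5 and 18.2 at Irx3, where the peaks further upstream, outside the window, stood at 67.8 and 50.8. Against the medians over all marked genes given with Irx6, the peaks of both upstream domains stood above the median in both E14 lists and below it in both E17 lists, and since the lists differ in length this is a description of ranks and not a test of the stages. The middle 300 bases of the longest stretch covered in all 4 libraries are shown for both domains, as the part of each that kept its peak in every list (plus strand of GRCm38, CpG in capitals, chr13:71967860-71968159 and chr8:91806407-91806706).
Upstream of Irx1: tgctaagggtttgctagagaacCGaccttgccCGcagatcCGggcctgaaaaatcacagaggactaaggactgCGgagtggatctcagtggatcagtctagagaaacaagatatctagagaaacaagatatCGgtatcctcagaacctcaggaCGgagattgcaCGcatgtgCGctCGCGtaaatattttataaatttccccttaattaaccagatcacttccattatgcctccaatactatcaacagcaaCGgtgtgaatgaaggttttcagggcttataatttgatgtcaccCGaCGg
Upstream of Irx3: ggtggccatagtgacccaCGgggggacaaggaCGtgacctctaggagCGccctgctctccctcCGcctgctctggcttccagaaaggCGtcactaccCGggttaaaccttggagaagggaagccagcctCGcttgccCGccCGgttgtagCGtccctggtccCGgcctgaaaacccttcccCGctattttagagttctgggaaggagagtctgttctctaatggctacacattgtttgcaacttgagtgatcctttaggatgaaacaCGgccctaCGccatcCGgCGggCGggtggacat
They held 13 and 17 CpG, against a median of 8 in the same windows of the 3506 regions with a stretch of at least 300 bp shared by all 4 libraries. The motif ACANNTGT, which reads the same on both strands and is the known core of Iroquois protein binding, was in neither sequence, nor in the 250 bases before Irx2 and Irx4, and was in 7.33% of those windows and 6.31% of the RefSeq promoters.

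Irx2 and Irx5 are the middle genes. Irx5 is known for the gradient of repolarization across the heart wall and, with Irx3, lies in the neighbourhood of Fto, and Irx2 is expressed with Irx1 in many organs of the embryo. Irx2 (ENSMUSG00000001504) lies on chromosome 13 from 72628820 to 72634198 and Irx5 (ENSMUSG00000031737) on chromosome 8 from 92357625 to 92376286, both on the plus strand. Within 3000 bp of the start sites, E14 replicate 2 had 3256 bp of peaks at Irx2 and 2380 bp at Irx5, and the other 3 libraries had 0 bp at both. The decrease of the mean therefore rests on 1 library (p = 1 for each gene, exact permutation test) and is 0 without it.
A peak in E14 replicate 2 alone was found at 0.808% of all annotated genes. The peaks of E14 replicate 2 at Irx2 were 921, 1592, 247 and 496 bp wide, and those at Irx5 were 893 and 2059 bp wide. None of them covered the start base of either gene, which lay in no peak in any library. The strongest stood at the 76.6 percentile at Irx2 and at the 80.2 percentile at Irx5. Inside Irx5, between 7275 and 9397 bp after its start, both E14 libraries had a peak, of 1549 and 2120 bp, and neither E17 library had one.

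**Figure D2:**
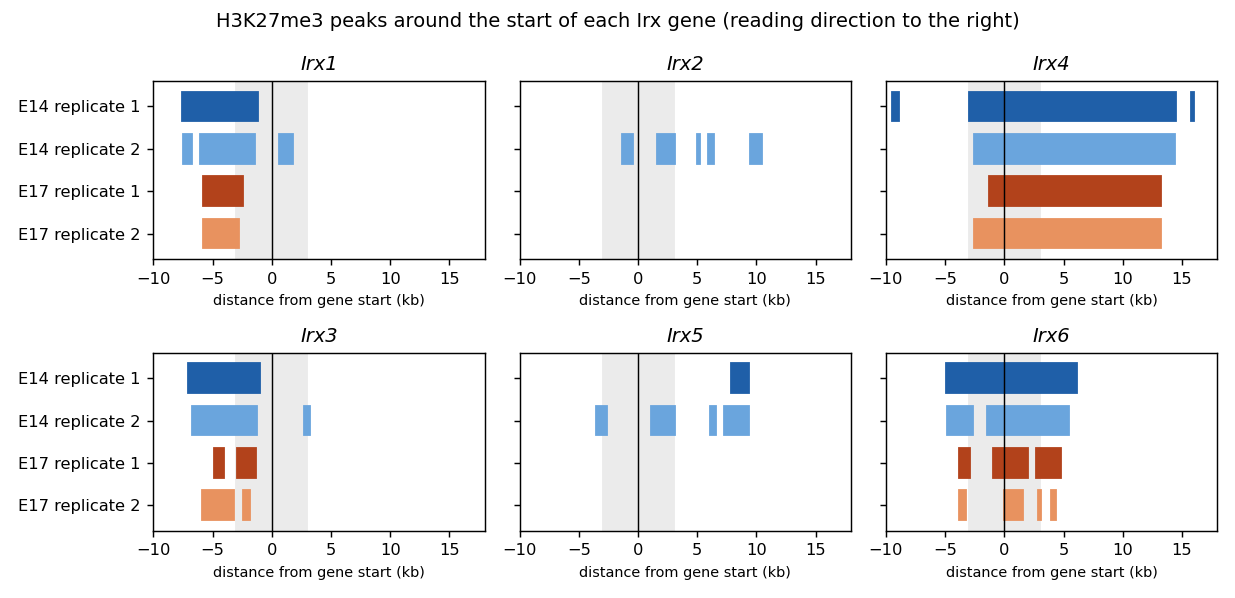
Peaks of each library around the start of each Irx gene, by distance in kb from the start of the gene record with transcription to the right. Rows and colours are as in the map, and grey marks 3000 bp on either side of the start. The domains lie before the start at Irx1 and Irx3 and over it at Irx4 and Irx6, and at Irx2 and Irx5 no peak covers the start base in any library.

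Set in order by the mean covered length of the windows at E14, the genes were Irx6 with 5922 bp, Irx4 with 5796 bp, Irx1 with 2274 bp, Irx3 with 2088 bp, Irx2 with 1628 bp and Irx5 with 1190 bp. At E17 the order was Irx4 with 4946 bp, Irx6 with 2852 bp, Irx3 with 1086 bp and Irx1 with 370 bp, with Irx2 and Irx5 at 0 bp. At E14, Irx6 and Irx4 overlapped each other, and so did Irx1, Irx3, Irx2 and Irx5, whereas every E14 value of Irx4 and Irx6 was above those of the other genes. At E17, Irx4 lay above Irx6 in both libraries and Irx3 above Irx1 in both libraries. The windows differ in length, from 6019 bp at Irx4 to 10291 bp at Irx1, with their annotated start sites. As a share of the window, E14 coverage was 100% and 92.6% at Irx4 and 100% and 81.1% at Irx6. It was 32.1% and 35.8% at Irx3 and 18.1% and 26.1% at Irx1. In E14 replicate 2 it was 38.9% at Irx5 and 33.3% at Irx2. By share, Irx4, Irx3 and Irx5 were not below Irx6, Irx1 and Irx2 in either E14 library, where their mean bp were lower.
The covered length was shorter in both E17 libraries than in both E14 libraries at Irx1, Irx3, Irx4 and Irx6, which are 4 of the 6 genes, where 58.1% of all genes marked in any library and 63.3% of protein-coding ones showed this, and 0 Irx genes were longer in both E17 libraries, where 0.694% were. Of genes marked in both E14 libraries 81.9% were shorter, of those marked in all 4 libraries 74% were, and the median gene of the latter kept 64% of its E14 length (quartiles 44.8% and 83.6%). Irx4 kept 85.3%, Irx3 52%, Irx6 48.2% and Irx1 16.2%. Of those genes, 77.1% kept no more than Irx4, 34.5% no more than Irx3, 29.1% no more than Irx6 and 2.3% no more than Irx1. This set leaves out genes that lost their peak by E17, and of the genes marked in both E14 libraries, whose median was 39.9%, 86.2% kept no more than Irx4, 60% no more than Irx3, 56.7% no more than Irx6 and 33.5% no more than Irx1. The Irx1 value is that of the edge of its domain, which as a whole kept 53.1%.

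**Figure D3:**
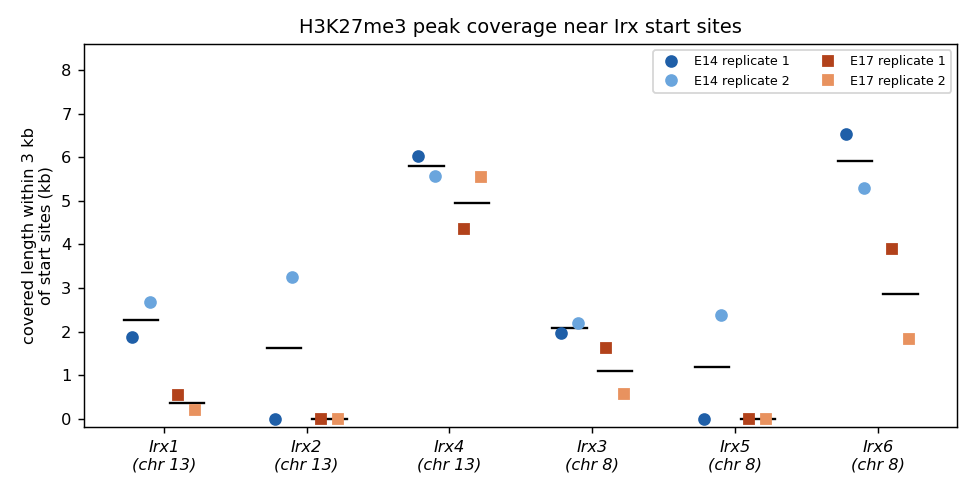
Covered length in kb within 3000 bp of the start sites of each Irx gene, with a point for each library and a line at the mean of each stage. Irx4 and Irx6 lie highest at both stages, and Irx2 and Irx5 are above 0 in E14 replicate 2 only.

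**Figure D4:**
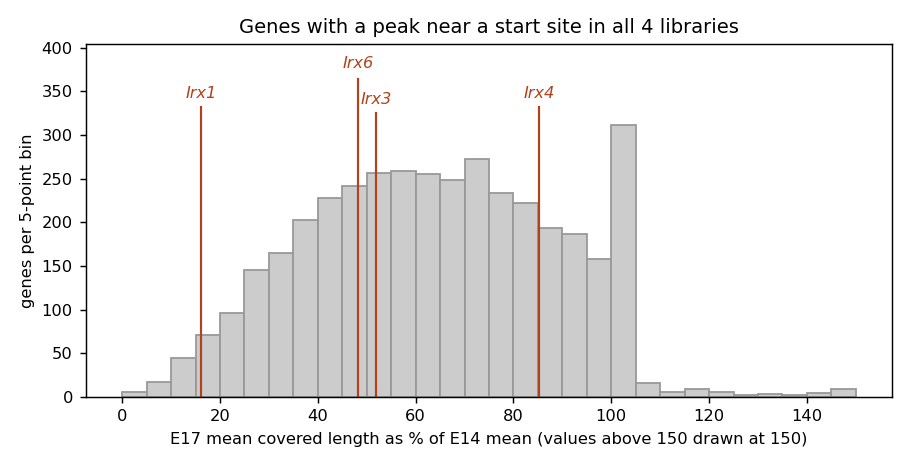
Number of genes by the E17 mean covered length as a percentage of the E14 mean, for genes marked in every library, with the Irx genes among them as lines. Irx1 lies at 16.2%, Irx6 at 48.2%, Irx3 at 52% and Irx4 at 85.3%.

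The whole clusters lost covered length as well. The chromosome 8 cluster was taken from 91795525 to 92683956, the ends of its outer genes with 3000 bp on either side, a length of 888 kb. It held 19 and 25 peaks at E14 and 11 and 10 at E17, which covered 54993 and 41767 bp at E14 and 16646 and 11563 bp at E17. The mean fell from 48380 ± 9352 bp to 14104 ± 3594 bp (SD, n = 2), a decrease of 70.8% (p = 0.333, exact permutation test). The chromosome 13 cluster, from 71954921 to 73272608 and 1318 kb long, held 17 and 20 peaks at E14 and 5 and 3 at E17.
These covered 44238 and 34989 bp at E14 and 19122 and 19535 bp at E17. The mean fell from 39614 ± 6540 bp to 19328 ± 292 bp (SD, n = 2), a decrease of 51.2% (p = 0.333, exact permutation test). In both clusters the stages did not overlap. The whole lists lost 59.6% of their length, which lies between the decreases of the clusters. At E14 the chromosome 8 cluster held more covered length than the chromosome 13 cluster in each library, by 1.24 and 1.19 times, and at E17 it held less, 0.871 and 0.592 times as much. Whether the clusters differ in their decrease was not tested.
Most of each cluster's decrease lay outside the start site windows, as did most of its E14 length. The mean E14 length there was 39180 of 48380 bp on chromosome 8 and 29916 of 39614 bp on chromosome 13. The E17 minus E14 difference there was -29012 of -34276 bp on chromosome 8 and -15902 of -20285 bp on chromosome 13. The gaps between the genes begin at the edge of these windows, so they hold the outer parts of the domains of Irx1, Irx3 and Irx6. Between Irx3 and Irx5, outside the start site windows, 35055 and 21386 bp were covered at E14 and 6290 and 6121 bp at E17, a decrease of 78%. Between Irx2 and Irx4 the values were 18597 and 9243 bp at E14 and 2336 and 1916 bp at E17, a decrease of 84.7%. The other gaps had smaller decreases, of 59.7% between Irx1 and Irx2 and of 52.3% between Irx5 and Irx6. Between Irx1 and Irx2, however, all of the E17 length, 2787 and 2766 bp, was the outer part of the Irx1 domain. Beyond that domain, this gap held peaks at E14 and none in either E17 library. At the gene record of Irx4 the decrease was 0, since all 9130 bp were covered in every library. In all 4 gaps both E17 libraries lay below both E14 libraries.
The stage difference of the chromosome 8 cluster and of Irx6 turned under 1 way of cutting the lists and kept its direction under the others. After all lists were cut by q-value to the covered length of the shortest one, 14.3 Mb, the chromosome 8 cluster had 0 and 9532 bp at E14 and 6954 and 11563 bp at E17, so that the difference between the means turned to an increase of 4492 bp (p = 0.667, exact permutation test). At Irx6 the covered length was then 0 bp in both E14 libraries and 2953 and 1818 bp at E17. Irx4 kept the same values as in the full lists, and the chromosome 13 cluster had 15129 and 23016 bp at E14 and 14784 and 19535 bp at E17, with overlap of the stages. With lists cut in this way, 26.2% of marked genes were shorter in both E17 libraries and 16.9% were longer, and the lowest −log10 q-value kept was 11.4 and 7.47 at E14 against 3.65 and 2.09 at E17. With lists cut to an equal number of peaks, 7107, the chromosome 8 cluster had 40689 and 31409 bp at E14 and 13779 and 11563 bp at E17, the chromosome 13 cluster had 28203 and 28225 bp at E14 and 18116 and 19535 bp at E17, Irx6 had the same values as in the full lists, and 55.7% of marked genes were shorter and 2.14% longer in both E17 libraries. With 1 threshold for all lists, a −log10 q-value of at least 3 or of at least 5, the E17 minus E14 difference was -33142 and -25295 bp in the chromosome 8 cluster and -3180 and -3646 bp at Irx6.

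**Figure D5:**
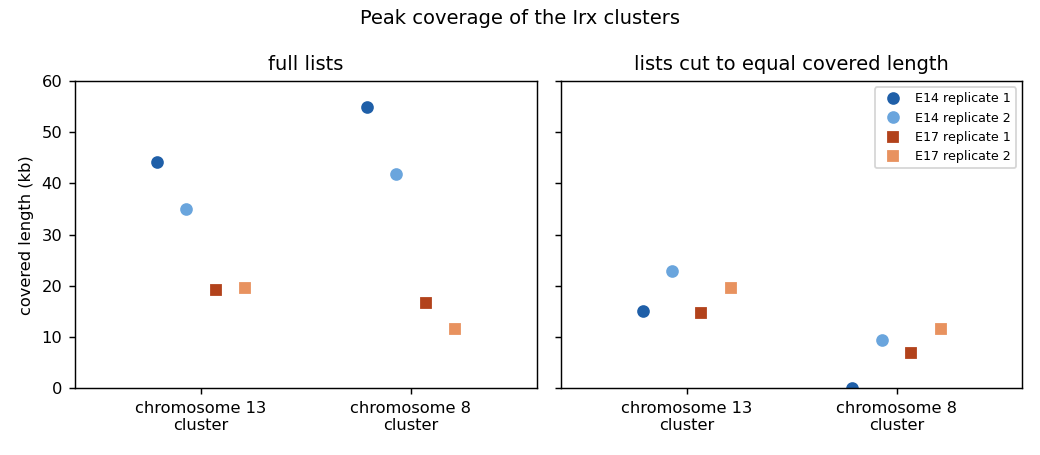
Covered length in kb of each Irx cluster, with a point for each library, in the full lists (left) and in lists cut by q-value to equal covered length (right). In the full lists the E17 points lie below the E14 points in both clusters, and in the cut lists they overlap.

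Peaks of the 4 lists that overlapped were merged into 52 regions in the clusters, 26 in each. A peak in all 4 libraries was found in 9 of them (17.3%), against 16.5% of the 25870 merged regions of the genome, and a peak in both E14 libraries and neither E17 library in 14 (26.9%), against 15.3%. Of the others, 11 were found in E14 replicate 1 alone, 15 in E14 replicate 2 alone, 2 in 3 libraries and 1 at E17 alone. The share kept in all libraries was thus close to that of the genome, and the share present in both E14 libraries and neither E17 library was higher, without a test of the difference. The regions kept in all 4 libraries had a median length of 6441 bp on chromosome 13 and 5879 bp on chromosome 8, against 1580 and 1284 bp for those in both E14 libraries only.
Of the 9 regions kept, 4 are the domains of Irx1, Irx3, Irx4 and Irx6. Another lies between Irx2 and Irx4, from 72812574 to 72817956, 184 kb from Irx2, over the start of the long noncoding RNA gene D730050B12Rik, with 5288 and 3705 bp covered at E14 and 1330 and 1916 bp at E17. Its counterpart on chromosome 8, by place, lies between Irx5 and Irx6 from 92458966 to 92464263, 101 kb from Irx5 and outside any annotated gene, with 5298 and 4006 bp at E14 and 2773 and 2131 bp at E17. Both gaps between the middle gene and the far gene therefore held a single region kept in all 4 libraries. Placed within the lists, these peaks stood at the 93.6 and 89.2 percentile at E14 and the 71 and 60.7 percentile at E17 in the first, and at 87.5 and 88 at E14 and 78.9 and 51.8 at E17 in the second.
The middle 300 bases shared by all 4 libraries are shown for both, since no protein-coding start site lies near them (plus strand of GRCm38, CpG in capitals, chr13:72816478-72816777 and chr8:92461171-92461470).
Between Irx2 and Irx4: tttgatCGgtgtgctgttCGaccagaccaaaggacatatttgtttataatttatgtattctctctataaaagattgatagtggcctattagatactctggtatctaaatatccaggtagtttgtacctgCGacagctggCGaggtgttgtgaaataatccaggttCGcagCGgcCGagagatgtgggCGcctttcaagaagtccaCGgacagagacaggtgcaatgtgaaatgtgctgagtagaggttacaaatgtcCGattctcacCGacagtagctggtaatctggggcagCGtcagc
Between Irx5 and Irx6: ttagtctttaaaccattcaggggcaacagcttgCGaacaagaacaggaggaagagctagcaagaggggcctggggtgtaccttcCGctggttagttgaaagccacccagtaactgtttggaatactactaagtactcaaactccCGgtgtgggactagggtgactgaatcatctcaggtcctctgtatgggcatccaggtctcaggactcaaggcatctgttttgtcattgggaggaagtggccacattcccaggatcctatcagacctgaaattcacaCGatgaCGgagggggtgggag
They held 12 and 5 CpG, and the first held 1 match to ACANNTGT and the second 0. The remaining 3 regions kept in all 4 libraries lie between Irx3 and Irx5, at 141, 186 and 222 kb from Irx3. The matching gap between Irx1 and Irx2 held 0 beyond the domain of Irx1. The second of the 3 lies over the start of the long noncoding RNA gene Gm36670. The third lies over the gene Gm28516, whose start site window held 3822 and 1534 bp at E14 and 0 bp at E17. The longest stretch of the third region shared by all 4 libraries was 93 bp. The 3 regions kept 32%, 47.2% and 18.6% of their E14 length. All 9 regions were shorter in both E17 libraries, as were 81.5% of the regions of chromosomes 1 to 19, X and Y with a peak in all 4 libraries, and the median kept was 47.2% in the clusters against 53.6%.
No protein-coding gene other than the Irx genes starts inside either cluster. Of the 14 other genes on chromosome 8 and 11 on chromosome 13, long noncoding RNAs and pseudogenes among them, 2 and 1 were marked in every library, namely Irx3os, Gm36670 and D730050B12Rik. Of all annotated genes, 6.97% were. Irx3os is not separate from Irx3, since it shares the domain and had the same 1616 and 556 bp at E17. Outside the clusters, the 2 nearest protein-coding genes on each side were examined. Of all 22028 protein-coding genes, 5675 were marked in at least 1 library. Fto, which encodes an RNA demethylase, and Ice1, Ndufs6, Mrpl36 and Mmp2 were marked in no library, and Rpgrip1l and Lpcat2 had one of 1073 and 893 bp in E14 replicate 1 alone. Adamts16, a secreted protease 1113 kb from the chromosome 13 cluster, was covered over 2737 and 3015 bp at E14 and 2328 and 2057 bp at E17.

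Among other TALE homeobox genes, the cofactors of Hox proteins and their relatives, Pknox2 and Mkx were marked in every library. These are 2 of the 12 examined, where 12% of protein-coding genes were so marked. Pknox2 and Mkx kept 88.3% and 91% of their E14 length. Meis3 was marked in E14 replicate 2 alone and Pbx4 in E14 replicate 1 alone, and Meis1, Meis2, Pbx2, Pbx3, Pknox1, Tgif1 and Tgif2 were marked in no library. Homeobox genes of another clustered family, Dlx1 to Dlx6, were marked in every library at 6 of 6 genes. Their covered length was shorter in both E17 libraries at 2 of 6 genes, where it was so at 4 of 6 Irx genes. The median length kept by the genes marked in every library was 93.3% for Dlx1 to Dlx6, against 50.1% for the 4 Irx genes and 64% for all genes, and these differences were not tested. The share kept cannot show a loss beyond the window, and Dlx1 and Dlx6 had the same length, 8668 and 6465 bp, in every library, as did Dlx5, with 6018 bp, in all but E17 replicate 2.
Likeness to each Irx gene was measured over 8 values, the covered share of the windows and the percentile of fold enrichment in each of the 4 libraries, across 22028 protein-coding genes. Irx2 and Irx5 were each other's nearest gene, at a distance of 0.0663, with 0 other genes closer, which follows from peaks in the same single library. The next genes for both were Tsx and Iqsec2 on chromosome X, where E14 replicate 2 had 1035 peaks and E14 replicate 1 had 179. The E17 libraries had 69 and 58 peaks there. The nearest to Irx4 were Foxe3 and S1pr5, to Irx6 Fam181b and Chrna5, to Irx1 Frmd4b and Fzd9, and to Irx3 Pi16 and Dusp9, at distances between 0.0663 and 0.226. Irx1 and Irx3 were 0.61 apart and Irx4 and Irx6 0.706 apart, with 1102 genes closer to Irx1, 755 closer to Irx3, 674 closer to Irx4 and 886 closer to Irx6. These pairs were thus alike in the place of the domain, while many other genes were closer to each in covered share and rank. Their distances cannot be set against that of the middle pair, which had peaks in a single library and is close mainly through shared absence.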

How the data were processed

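Peak lists of 4 H3K27me3 libraries were used. Per the labels, the authors used Bowtie2 2.3.5.1, SAMtools 1.9, MACS2 2.2.7.1 and the mm10 genome, and the methods give broad peaks at a q-value threshold of 0.01, with 1 list per library and no pooling. The control of the peak call is not given in the sources used here. The deposited lists give each peak a fold enrichment, a ratio over local background, and −log10 p and −log10 q values, as the authors' peak caller wrote them. They hold no reads, so depth cannot be read from them and no interval for a peak can be given. Per the methods, reads of the set of E18.5 WT and Kdm6b knockout samples were reduced to the depth of the other samples. The methods list that set apart from the E14.5 and E18.5 WT samples of the stage comparison, to which the libraries used here belong. No reduction is stated for the stage comparison, and the lists do not show whether depth was equal.
All peaks ended within the chromosomes of GRCm38. Start sites came from GENCODE vM21. Covered length is the bp of a window under peaks, a peak counts from 1 bp of overlap, and percentiles are the share of a library's peaks with at most that fold enrichment. Stages were compared by an exact permutation test with 3 splits. Named genes are the 6 Irx genes, other TALE genes, Dlx1 to Dlx6, cell type markers, genes inside the clusters, 2 protein-coding neighbours per side, and the 2 genes most like each Irx gene. The members and lists were chosen with earlier results of these data known, and the regions and sequences shown were chosen after their values were seen. Some genes of the lists are not reported here. Same-numbered libraries share only a number. Alternatives were stricter q-values, other windows and cluster limits, lists of equal number or length, joined or wide peaks, and leaving out each library. Python 3.11.15, numpy 2.4.6 and matplotlib 3.10.9 were used, and the computation of covered length was tested on simulated data, where 100% of 4000 lengths were recovered.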

Additional observations from a re-analysis of the deposited data

How the results depend on the processing

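Under the alternatives, 82 stage differences near start sites kept their direction, 7 became 0 and 1 reversed, and 25 differences of a whole cluster kept it and 1 reversed. These counts include the replicate number as a block, where the mean difference equals the main one by construction. They also include Irx2 and Irx5, whose differences rest on E14 replicate 2 alone. Lists of equal covered length reversed Irx6, to an increase of 2386 bp, and the chromosome 8 cluster, to an increase of 4492 bp, and left 0 bp of difference at Irx2 and Irx5 and 1 Irx gene with a peak in all 4 libraries. This setting keeps far fewer E14 peaks by construction. The number of such genes was 2 instead of 4 at a −log10 q-value of at least 5 and with windows of 1000 bp, and the difference was 0 at Irx2 in the first and at Irx3 and Irx4 in the second. The window of 1000 bp held no peak at Irx3 and was covered in full at Irx4. Leaving out 1 library gave differences of E17 minus E14 from -2314 to -1496 bp at Irx1, from -1532 to -472 bp at Irx3, from -1452 to -248 bp at Irx4, from -4104 to -2037 bp at Irx6, from -3256 to 0 bp at Irx2 and from -2380 to 0 bp at Irx5. It gave -24910 to -15660 bp for the chromosome 13 cluster, -40888 to -27662 bp for the chromosome 8 cluster and 4 genes with a peak in all libraries throughout. The mean percentile of fold enrichment then ranged from 68 to 81.9 at Irx1, from 43.4 to 69 at Irx3, from 93.6 to 97.3 at Irx4 and from 84.2 to 87 at Irx6, and it stayed at 76.6 at Irx2 and 80.2 at Irx5, which have no value without E14 replicate 2. It was 74.2 by −log10 p and 63 by the widest peak at Irx2, and 78.7 by −log10 p at Irx5.
With the replicate number as a block, the mean within-number difference was -20285 bp for the chromosome 13 cluster and -34276 bp for the chromosome 8 cluster, as without the block, and no call changed, since none can pass with 2 pairs. Deviations of same-numbered libraries correlated at 0.139 across 9083 genes, which are not independent. The depth of the libraries, which the lists do not give, limits every absence of a peak.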

Other observations

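Except at Irx6, the Irx starts lay in sequence with more CpG dinucleotides than most genes have there. In the 300 bases from 250 before to 50 after the start of the gene record, Irx1 held 35 CpG, Irx4 30, Irx2 and Irx5 25 each, Irx3 22 and Irx6 11, where the median of 21938 protein-coding genes was 11. Irx4 and Irx6, which both had a domain over the start, thus lay far apart, with 30 and 11.
Within the clusters, the 9 regions with a peak in all 4 libraries had a median of 1.57 CpG per 100 bases and a GC content of 47.1%, and the 14 regions in both E14 libraries only had 1.8 and 47.7%. Across the genome the order was the other way, with a median of 1.96 CpG per 100 bases for the 4261 regions found in every library and 1.27 for 3962 regions in both E14 libraries only. This difference was not tested.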
